A study of Strongylocentrotus purpuratus with 6 samples.

Results

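Myc and Id are the 2 helix-loop-helix genes among 37 developmental regulatory genes of the purple sea urchin, Strongylocentrotus purpuratus, with listed cis-regulatory modules (CRMs), genomic fragments whose enhancer activity had been measured in earlier reporter work that the study drew on. Every CRM listed under either name was taken, and a locus was drawn from the lowest start to the highest end of a gene's CRMs plus 2 kb on each side. Every Pol II peak that overlapped a locus by at least 1 bp was a member. This gave 4 peaks and 5 CRMs at Myc and 18 peaks and 10 CRMs at Id, together 22 of the 554846 peaks in the list and 15 of the 389 CRMs in the table. The rule used CRM names and positions and no reporter or signal value, but earlier results of these data were known when it was chosen. The same rule gave 1385 peaks and 374 CRMs at the other 35 genes.

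The peaks came from chromatin immunoprecipitation followed by sequencing (ChIP-seq), in which DNA fixed to RNA polymerase II (Pol II) is pulled down, sequenced and mapped. The immunoprecipitated group held 3 samples of 20 h hatching blastula embryos, precipitated with 8WG16 (ab817), an antibody against the heptad repeat in the tail of the largest Pol II subunit. The input group held 3 samples of chromatin from embryos of the same stage with no precipitation. Whole embryos were used, no strain, genotype or treatment is named in the labels, and the authors combined the replicates into 1 peak list before it was made. A peak here is a stretch in which the peak caller found more reads than in the input, and the list gives its position and no height. The list therefore carries neither the depth behind a peak nor the spread between the 3 replicates, no test between samples could be made from it, and no defining markers of tissue can be checked in such a list. Signal from different cells of the embryo cannot be told apart, so a peak does not show how many cells held Pol II there or how much each held.

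Myc is a basic helix-loop-helix leucine zipper transcription factor that dimerizes with Max, binds E-box sequences and, in vertebrates and flies, drives growth and proliferation. Id proteins, described in vertebrates, carry the helix-loop-helix dimerization region without the basic DNA-binding region. They pair with other helix-loop-helix factors and keep them off DNA, which holds back differentiation in many lineages. Pol II starts transcription at promoters, and ChIP with antibodies to it recovers both promoter DNA and the body of genes being transcribed.

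At both genes a Pol II peak of over 6000 bp lay across intron CRMs, and almost all intron and upstream CRM bases lay under peaks. The longest peak was 10128 bp at Myc and 12642 bp at Id, where the median single peak of the whole list was 217 bp. A nearer comparison is the longest peak at each of the other 35 genes. Its median was 4890 bp, with quartiles of 2203.5 and 10429 bp, so the Myc peak lay inside that range and the Id peak above it. Peaks covered 11321 of the 16797 bp of the Myc locus (67.4%) and 29109 of the 40494 bp of the Id locus (71.9%). The median over the other 35 genes was 58.5%, with quartiles of 43.0% and 70.3%, so the Myc value lay inside that range and the Id value just above it. The 2 loci differed from one another in what lay around the long peak. At Myc the coverage stopped close to its ends, whereas at Id a chain of further long peaks continued on the upstream side.

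**Figure D1:**
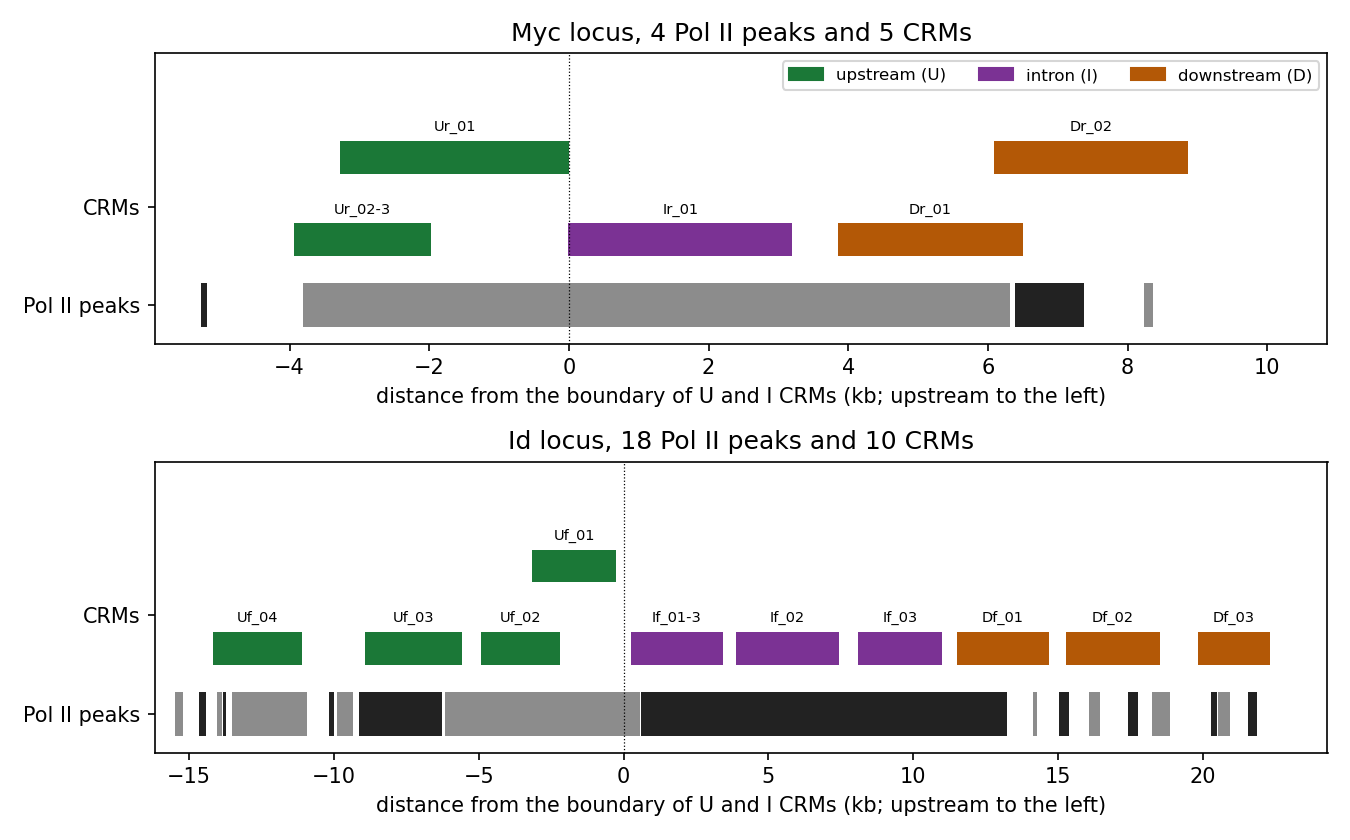
Pol II peaks (bars in alternating greys) and CRMs (green, upstream; purple, intron; orange, downstream) of the Myc locus (top) and the Id locus (bottom), in kb from the boundary of upstream and intron CRMs, with upstream to the left; the axis lengths differ between panels. The 10128 bp peak at Myc reached all 5 CRMs, and at Id 3 adjacent peaks of 12642, 6723 and 2871 bp ran from the first downstream CRM to the third upstream CRM.

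The Myc locus lies on Scaffold770 from 411931 to 428727 in version 3.1 of the genome, as linear scaffolds. The letters U, I and D in CRM names were read as upstream, intron and downstream. At both genes D CRMs lie at lower and U CRMs at higher coordinates. An annotation of that build was not used here, so exons, untranslated regions and start sites are not placed, and the letters are the only guide to gene structure. The middle of the place where U and I CRMs meet is at 422794 for Myc and is called the U and I boundary here.

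The 10128 bp Myc peak ran from 416478 to 426605. It was the longest on its scaffold, stood at rank 178 in the whole list and was longer than 99.97% of all peaks. It overlapped all 5 Myc CRMs. On the downstream side it began 181 bp inside Myc_Dr_01, and on the upstream side it ended 122 bp before the outer end of Myc_Ur_02-3. Both ends of the peak thus lay near the ends of the block of CRMs, apart from most of Myc_Dr_02.

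The other 3 Myc peaks were short. A 984 bp peak from 415416 to 416399 lay 78 bp beyond the long one on the downstream side and inside Myc_Dr_02, and a 124 bp peak lay farther out from 414437 to 414560. On the upstream side a single 85 bp peak, from 427985 to 428069, lay beyond the last CRM. It was the last peak listed on Scaffold770, and the locus reached 658 bp past it. The end of the scaffold was not known, so those bases may not exist and may lower the Myc share. The nearest peak left out by the 2 kb limit was a 147 bp peak on the downstream side, 2791 bp outside it.

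Among Myc CRMs, Myc_Ir_01 (419594 to 422800) and Myc_Ur_01 (422788 to 426066) lay entirely under the long peak. Myc_Ur_02-3 (424770 to 426727) was covered over 1835 of 1957 bp, or 93.8%. Myc_Dr_01 (416296 to 418937) was covered over 2563 of 2641 bp, or 97.0%. Only Myc_Dr_02 (413930 to 416713), the outermost downstream module, was clearly less covered, over 1344 of 2783 bp or 48.3%. These modules are not independent, since Myc_Dr_02 and Myc_Dr_01 share 417 bp, Myc_Ir_01 and Myc_Ur_01 share 12 bp, and Myc_Ur_01 and Myc_Ur_02-3 share 1296 bp.

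The Id locus lies on Scaffold376 from 103836 to 144329, with its U and I boundary at 128138. Its 12642 bp peak, from 114901 to 127542, was the longest on the scaffold and stood at rank 107 in the list. It took in Id_If_03 and Id_If_02 whole, nearly all of Id_If_01-3, and the inner part of Id_Df_01. After a gap of 42 bp a 6723 bp peak followed from 127585 to 134307, across the boundary and under Id_Uf_01 and Id_Uf_02. After a gap of 95 bp a 2871 bp peak from 134403 to 137273 completed the run over Id_Uf_03. A separate long peak, 2603 bp, from 139068 to 141670, lay apart from this run under Id_Uf_04.

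The remaining 14 Id peaks were shorter than 1000 bp. On the downstream side 8 peaks of 148 to 629 bp were scattered between 106271 and 114015. On the upstream side, 6 peaks of 117 to 553 bp flanked the 2603 bp peak. A 49 bp peak lay just outside the upstream limit, by 42 bp, and the nearest one outside the downstream limit was 109 bp long and 4511 bp away.

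The Id CRMs fell into a covered inner run and less covered downstream modules. Id_If_03 (117138 to 120045), Id_If_02 (120717 to 124263), Id_Uf_01 (128391 to 131289) and Id_Uf_02 (130338 to 133056) each lay entirely under 1 peak. Id_If_01-3 (124716 to 127886) was covered except for the 42 bp gap, 98.7% in all. Id_Uf_03 (133723 to 137079) was covered except for the 95 bp gap, 97.2% in all. The outermost upstream module, Id_Uf_04 (139257 to 142329), was covered over 2705 of 3072 bp, or 88.1%. Downstream, the values were 59.0% for Id_Df_01 (113456 to 116614), 33.5% for Id_Df_02 (109633 to 112869) and 38.0% for Id_Df_03 (105835 to 108308). The 2 outer downstream modules were touched only by peaks of 629 bp or less, while the 12642 bp peak reached into Id_Df_01. All 3 values lay below those of the 7 intron and upstream modules. Of the Id CRMs, only Id_Uf_01 and Id_Uf_02 overlap one another, by 951 bp.

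**Figure D2:**
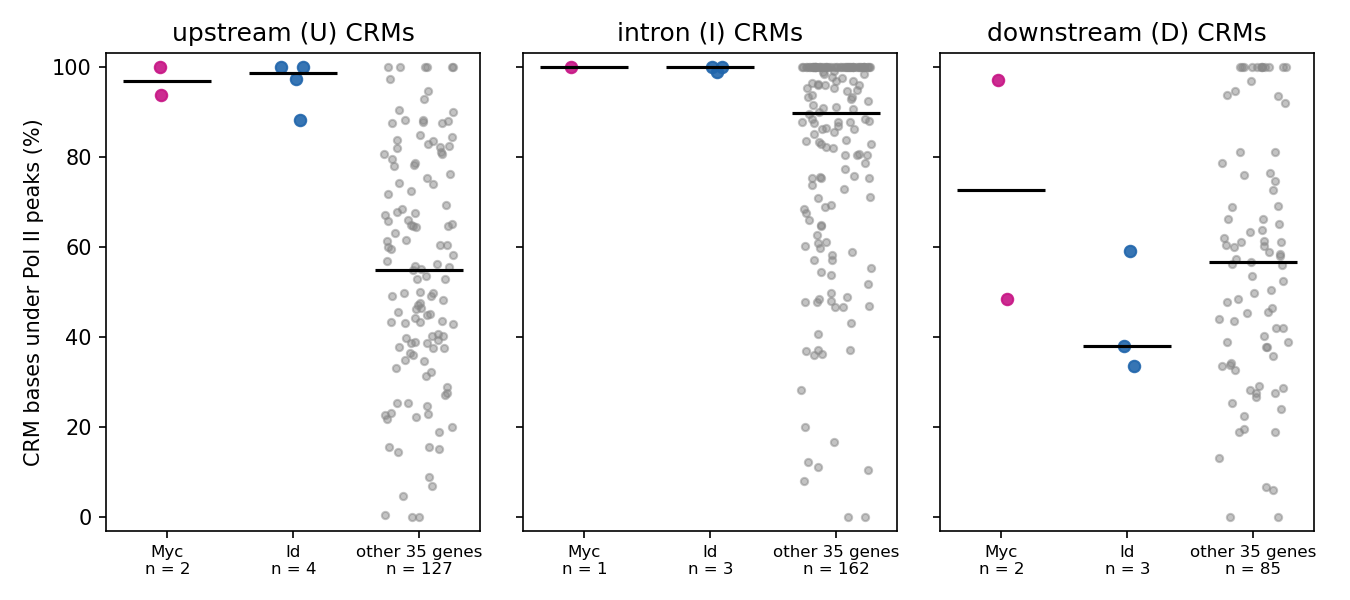
Share of bases under Pol II peaks (%) in each Myc and Id CRM, with the CRMs of the other 35 genes beside them by position letter; points are CRMs and black lines medians. Myc and Id upstream CRMs lie at 88.1% or more, against a median of 54.8% in upstream CRMs of the other genes, not matched for distance. Their downstream CRMs range from 33.5% for Id_Df_02 to 97.0% for Myc_Dr_01.

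All 15 Myc and Id CRMs overlapped a peak, but so did 98.5% of all CRMs in the table, so contact with a peak does not set them apart. A CRM lay entirely under 1 peak in 6 of 15 cases, 2 at Myc and 4 at Id, beside 20.1% of all CRMs. A peak of over 6000 bp reached 12 of the 15, 5 of 5 at Myc and 7 of 10 at Id, beside 26.5% of all CRMs. These 12 rest on only 3 peaks, and neighbouring CRMs of a gene share them, so the 15 modules are not replicates of one another. Summed over CRMs, 88.2% of Myc and 82.0% of Id CRM bases were covered, beside 65.3% for the other 35 genes.

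By class mean, the difference from the other genes was widest in the upstream class. Upstream CRMs averaged 96.9% ± 4.41 covered at Myc (SD over 2 CRMs) and 96.3% ± 5.66 at Id (4 CRMs), beside 54.9% ± 25.7 over the 127 upstream CRMs of other genes. Here 3 of 6 Myc and Id modules lay entirely under 1 peak, beside 6.77% of all upstream CRMs. Of these 3, Id_Uf_01 and Id_Uf_02 share 951 bp and lie under the same 6723 bp peak. The least covered of the 6, Id_Uf_04, still exceeded 115 of the 127. Among the other 26 genes with all 3 letters, only 1 had an upstream mean of 90% or more, Dlx at 91.0%, a gene named after its value was seen. Class means take no account of distance from the U and I boundary, and both Myc upstream CRMs lie close to it. In 1 kb bins from -4000 to 0 bp (upstream negative), other genes had medians of 67.6%, 81.2%, 98.75% and 92.4%. Myc had 81.1% in the first of these bins and 100% in the others. From -9000 to -4000 bp other genes had medians of 29.3% to 50.4%, where Id had 90.5% or more. Whether the upstream difference holds at matched distance was not tested.

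Intron CRMs were highly covered in general. They averaged 100% in the single Myc module and 99.6% ± 0.765 over the 3 at Id, beside 79.8% ± 25.0 over 162 in other genes. Of the 4, 3 lay entirely under 1 peak, beside 34.3% of all intron CRMs. Since 54 intron CRMs of other genes were also entirely under 1 peak, the Myc and Id values in this class sit at a level that many modules share. The intron mean exceeded the upstream mean by 3.12 percentage points at Myc and 3.25 at Id. A difference under 5 points in either direction was seen in 5 of the other 26 genes.

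Downstream CRMs went the other way at Id and were mixed at Myc. They averaged 72.7% ± 34.5 at Myc (2 CRMs) and 43.5% ± 13.6 at Id (3 CRMs), beside 56.4% ± 27.8 over 85 in other genes. None of the 5 lay entirely under 1 peak, beside 13.3% of all downstream CRMs. The downstream mean was the lowest of the 3 letters at both Myc and Id, and also in 11 of the other 26 genes, while the intron mean was the highest at both and in 16 of the 26. Both means lay between the quartiles of single downstream CRMs of other genes, 35.7% and 75.9%. The SDs describe the spread between modules, which are not replicates, and the 2 Myc modules share 417 bp. Whether the Myc and Id downstream values differ from those of other genes was not tested.

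Peak lengths give the same picture from the side of the peaks. At Myc 1 and at Id 4 of the peaks were 1000 bp or longer, 5 of 22, beside 4.71% of the whole list. Peaks of over 6000 bp made up 3 of the 22, beside 0.0955% of the list. The loci of the other 35 genes are a nearer comparison than the whole list. Peaks of 1000 bp or more made up 22.7% at Myc and Id, beside 14.9% (206 of 1385) at the other 35 genes, and peaks of over 6000 bp made up 13.6%, beside 2.02% (28 of 1385). With 3 such peaks at Myc and Id and no replicates, no error can be given for these shares. They are shares per peak, and both loci had fewer peaks per kb (0.238 and 0.445) than the median of the other 35 genes (0.817). Counted per locus, Myc had 1 and Id 2 peaks of over 6000 bp, within the range of 0 to 6 at the other 35 genes. The 5 long peaks held 34967 of the 40430 covered bp, or 86.5%, with 89.5% at Myc and 85.3% at Id, beside 25.8% of covered bp in the list. This share was not computed for the nearer comparison, the loci of the other 35 genes. The median peak was 554 bp at Myc and 330 bp at Id, beside 319 bp for the median of the other 35 genes. With 4 peaks the Myc median is loose, and it ran from 124 to 5556 bp over the alternative settings.

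Short gaps broke up what could be read as longer runs. A gap to the next peak of under 100 bp followed 1 of 3 peaks at Myc and 5 of 17 at Id, beside 11.2% of all gaps between neighbouring peaks. Joining across all gaps of under 100 bp gave a run of 11190 bp at Myc, 99.3% of it under peaks, with 3 CRMs wholly inside. At Id it gave a run of 22373 bp, 99.4% under peaks, interrupted only by the 42 and 95 bp gaps and with 6 CRMs wholly inside. By joined run, Id stood at rank 3 and Myc at rank 13 of the 37 genes, where by longest single peak they stood at 8 and 11.

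Several of the spaces between listed CRMs were part of these runs. The 657 bp between Myc_Dr_01 and Myc_Ir_01 were covered in full. At Id the same held for the spaces of 524, 672, 453, 505 and 667 bp from Id_Df_01 through to Id_Uf_03. Outside that run coverage dropped, to 27.5% of the 1325 bp between Id_Df_03 and Id_Df_02, 37.5% of the 587 bp between Id_Df_02 and Id_Df_01, and 51.0% of the 2178 bp between Id_Uf_03 and Id_Uf_04. In the outer 2 kb on each side, the downstream flank was at 0% at both genes, and the upstream flank at 4.25% at Myc and 24.8% at Id.

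**Figure D3:**
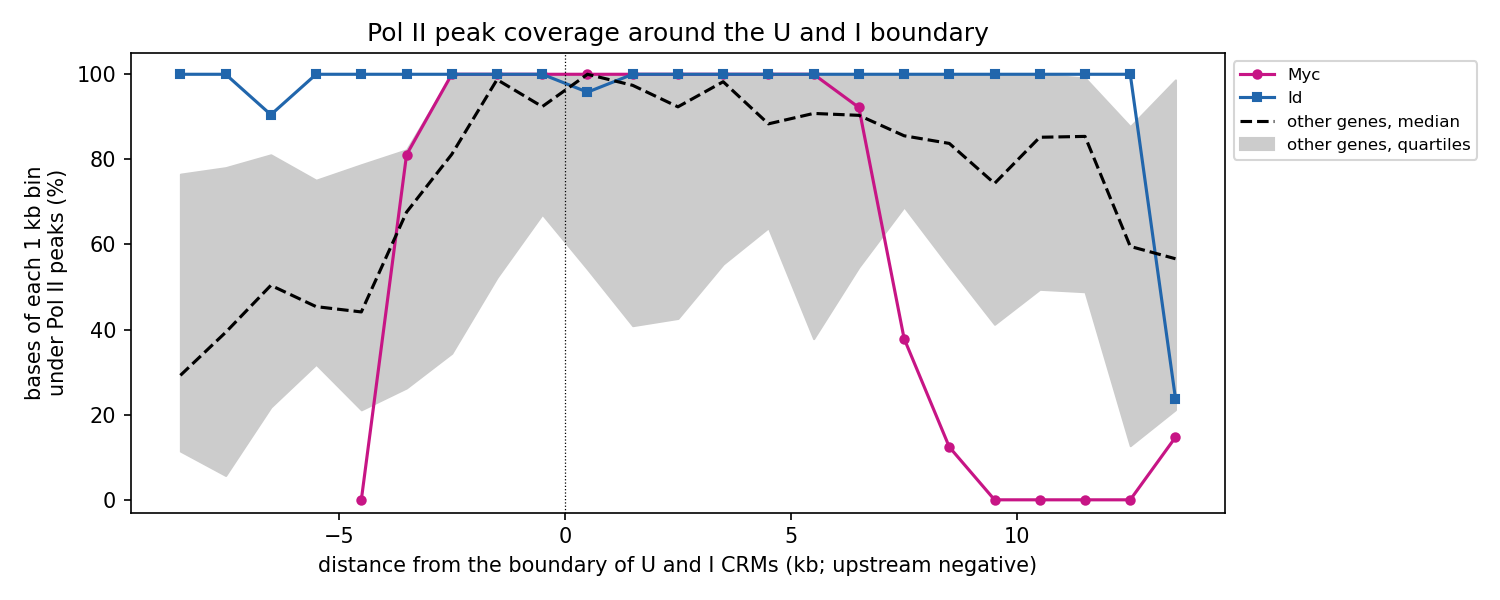
Share of bases under Pol II peaks (%) in 1 kb bins, in kb from the U and I boundary with upstream negative, for Myc and Id (lines with markers) and for up to 30 other genes (dashed, median; grey, quartiles). Within the bins shown, Id stays at 90.5% or more until 13 kb. Myc stays at 100% from -3 to 6 kb, falling to 37.9% at 7 to 8 kb, and has no value farther upstream than its last listed peak.

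Set on a common axis from the U and I boundary, the genes differed in how far coverage reached. Myc was at 100% in each of 9 bins of 1 kb from -3 to 6 kb, with 81.1% in the bin upstream of them and 0% in the next. On the downstream side Myc was at 92.2% from 6 to 7 kb, 37.9% from 7 to 8 kb and 12.4% from 8 to 9 kb. Id was at 100% in 20 of 23 bins, and the exceptions were 90.5%, 95.8% and, at 13 to 14 kb, 23.8%. The median of the other genes was 29.3% in the outermost upstream bin, where Id was at 100%. The upper quartile of the other genes was itself 100% in every bin from -3 to 11 kb, so no gene could exceed it there and this measure cannot compare the genes near the boundary. It lay under 100% in 9 of the 23 Id bins and 5 of the 19 Myc bins. Id exceeded it in 8 of its 9, and Myc in 0 of its 5. The 8 Id bins lie under only 3 adjacent peaks and are not separate observations. In each of them, 1 to 7 of the other genes were at 100%. The profile starts 9 kb upstream, close to where the run of Id peaks ends (137273), so Id farther out was not compared. Of those 5 Myc bins, the ones from 11 to 14 kb lie outside the Myc locus, and the upstream bin at 0% lies beyond its last CRM. In the remaining bin Myc was at 81.1%, beside an upper quartile of 82.25%. The count of 0 therefore does not compare Myc CRMs with those of other genes.

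**Figure D4:**
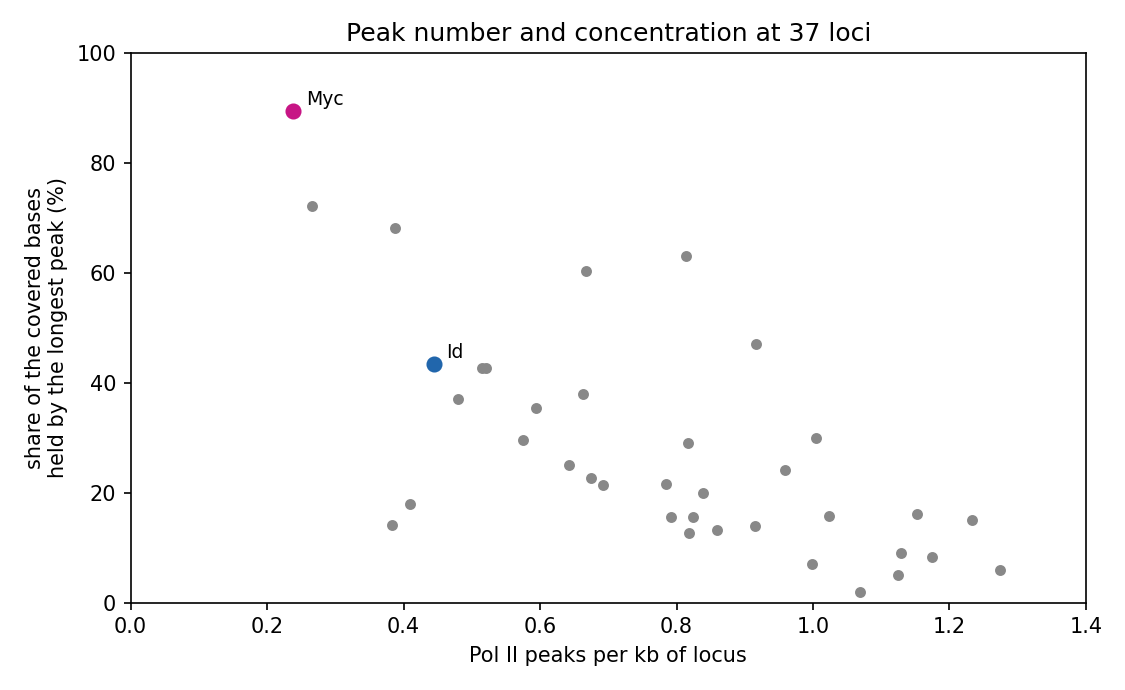
Number of Pol II peaks per kb of locus against the share of covered bases held by the longest peak (%), 1 point per gene, with Myc and Id named and the other 35 genes in grey. Myc lies at 0.238 peaks per kb and 89.5%, and Id at 0.445 peaks per kb and 43.4%.

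Few peaks held much of the covered DNA at Myc. Its locus had 0.238 peaks per kb, the lowest of the 37 genes, and its longest peak held 89.5% of the covered bases, the highest of the 37. Id had 0.445 peaks per kb (rank 32) and 43.4% of covered bases in the longest peak (rank 7), beside medians of 0.817 per kb and 21.3% for the other 35 genes. The Myc locus was the third shortest of the 37, and the part of locus size in these values was not tested.

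In the order of the 37 genes by locus coverage, Id stood at 7 between Dach (74.1%) and Tbx23 (71.5%), and Myc at 12 between Lim1 (70.2%) and IrxA (67.0%). Counting each CRM base once, Myc stood at 3 with 87.1%, between Chordin (90.5%) and Lim1 (83.8%), and Id at 5 with 81.5%, between Lim1 and Dach (81.2%). By longest peak, Id stood at 8 between Dlx (12820 bp) and Elk (11952 bp), and Myc at 11 between Chordin (10759 bp) and Lim1 (10099 bp). Many of these steps are a few percent or less, and without replicates no error can be given for the order of neighbours. Outside CRMs, 15.9% of 4657 bp was covered at Myc (rank 34) and 45.9% of 10911 bp at Id (rank 17), beside a median of 42.6% for the other 35 genes. In the spaces between CRMs alone, without the added flanks, the share was 100% of 657 bp at Myc and 65.3% of 6911 bp at Id. That share was not computed for the other genes, so the part of the flanks in these ranks was not tested.

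**Figure D5:**
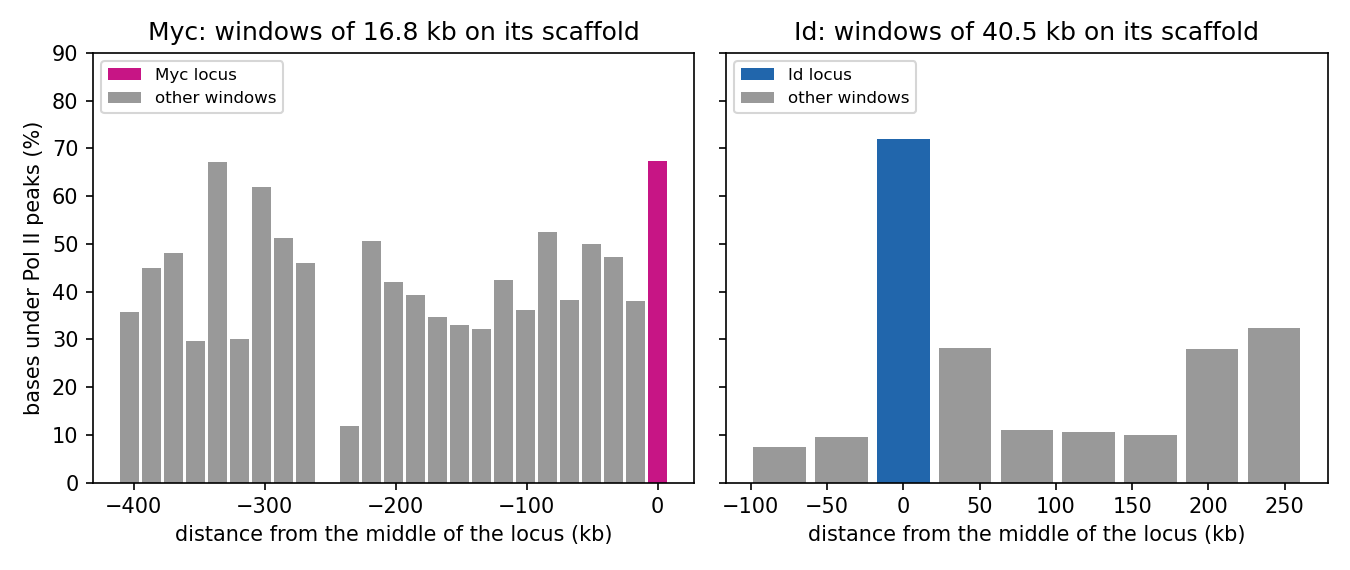
Share of bases under Pol II peaks (%) in the Myc and Id loci, set against consecutive windows of the same length on the same scaffold. The Myc locus (67.4%) lies level with the highest of 24 windows (67.1%), and the Id locus (71.9%) lies above all 8 windows (7.38% to 32.3%).

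The surroundings of the genes differed. Outside its locus the Id scaffold was covered over 17.2% of its length up to the last listed peak, and both of its peaks of over 6000 bp lay in the locus. Of 8 consecutive windows as long as the Id locus, none reached its 71.9%, and their values ran from 7.38% to 32.3% with a median of 10.8%. Outside the Myc locus 39.3% of its scaffold was covered by the same count, and only 1 of the 3 peaks of over 6000 bp lay in the locus. The 24 windows as long as the Myc locus ran from 0% to 67.1% with a median of 40.6%, so the Myc share of 67.4% was level with the highest of them. The longest peak in those windows was 7808 bp, shorter than the Myc peak, and 2065 bp in the windows around Id. Other genes on these scaffolds were not placed, so what the windows contain is not known.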

How the data were processed

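The data were 1 list of Pol II peaks, made from 3 ChIP and 3 input samples of embryos at 20 h. Per the labels, ChIP and input came from the same 3 extracts, and the study calls them biological replicates. The submitters' processing notes name CASAVA 1.8, Bowtie 1.0.1 and MACS 1.4.2, whereas the study's methods name Bowtie 2, and which aligner made the list is not settled. The authors combined replicates, aligned 50 bp reads to genome version 3.1 (linear scaffolds) and called peaks against input with default settings. The deposited list holds positions in bp and no other quantity, with no score, so a stricter threshold could not be set. Minimum peak lengths were used instead, and whether longer peaks are the stronger ones could not be checked.

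Positions are printed 1-based for peaks and as listed for CRMs, whose base convention is not given in the sources used here and could shift a length by 1 bp. CRM coordinates were the only part of the supplementary table used. Overlaps, covered bases and lengths were computed in Python 3.11.15 with numpy 2.4.6 and scipy 1.17.1, and figures with matplotlib 3.10.9. The overlap code was tested on simulated data, 500 windows with 0 wrong. No test was run and no p-value was computed, because there is 1 list and no replicate. Named items were every Myc and Id CRM, the longest peak and every peak of 1000 bp or more at each locus, those at the U and I boundary, and the genes next above and below in 3 rankings. Members and lists were chosen with earlier results of these data known. Alternatives were minimum peak lengths of 50, 150 and 300 bp, flanks of 0 and 5 kb, joining gaps under 100 bp, an overlap of 50 bp, a mean over CRMs, 95% of a CRM for a full overlap, and leaving out the longest peak.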

Additional observations from a re-analysis of the deposited data

How the results depend on the processing

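No paired analysis was possible because the replicates were combined in 1 list, and for the same reason none could be left out. Of 64 alternative values for 10 results, 38 stayed within their interval (counts within 1.5 times) and 26 did not. The 38 include values that could not move, since no member peak was shorter than the 50 bp minimum. For the Myc median the interval spanned the lengths of all its peaks, so a move was hardly possible. The count of 38 is therefore not a measure of how firm the results are. Without the longest peak, the Myc locus share was 7.10% (67.4% with it), its CRM share 9.13% (87.1%) and its CRMs entirely under 1 peak 0 (2), and at Id the shares were 40.7% (71.9%) and 44.3% (81.5%) with 2 such CRMs (4). Flanks of 0 kb gave 87.8% at Myc and 78.4% at Id, and flanks of 5 kb gave 50.3% and 67.0%. At Myc the 5 kb flank reached still farther past the last listed peak of the scaffold, over bases that may not exist. Peaks of at least 150 bp left 2 peaks (4) at Myc, a locus share of 66.2% and a CRM share of 86.1%, and at Id shares of 71.2% and 80.6%. Peaks of at least 300 bp left the same Myc values, 2 peaks, 66.2% and 86.1%, and 10 peaks (18) at Id, with 67.9% and 78.2%. Joining short gaps gave a CRM share of 87.8% at Myc, and 82.0% with a locus share of 72.5% at Id. The mean over CRMs at Myc was also 87.8%. Cutting the Myc locus at the last listed peak, an alternative chosen after seeing the data, gave 70.1%. The median peak length ran from 124 to 5556 bp at Myc (554) and from 330 to 591 bp at Id (330), inside order-statistic intervals that are wide for 4 and 18 peaks. The intervals of the shares are binomial over neighbouring bases, which are not independent, so they are narrow and cover no replicate error. Peak height and depth were not analysed here.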
